A study of Homo sapiens with 10 samples.

Results

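The dual-specificity MAPK phosphatases described here are 10 genes chosen by name: DUSP1, DUSP2, DUSP4, DUSP5, DUSP6, DUSP7, DUSP8, DUSP10, DUSP14 and DUSP16. All 10 were found by symbol among the 20263 genes of the expression table, and the rule uses their names, not their values. The libraries came from PANC-1, an established line from a human pancreatic ductal carcinoma. Cells were exposed for 24 h to 20 µM LY, which the series title identifies as lycorine, a plant alkaloid known to block protein synthesis, or to the vehicle DMSO. Each group held 5 libraries of the same line, with no genetic change stated for either. The question is which members of the family differed in transcript level between LY and DMSO cells, and whether nuclear inducible, ERK-selective and JNK/p38-selective phosphatases differed alike.

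MAPK phosphatases remove phosphate from both the threonine and the tyrosine whose phosphorylation activates a MAP kinase, and so end its signal. Several of their genes are transcribed within minutes of MAP kinase activation and form a negative feedback loop. Members differ in where they sit in the cell and in which kinase they bind: DUSP1, DUSP2, DUSP4 and DUSP5 are inducible nuclear enzymes, DUSP6 and DUSP7 are cytoplasmic and prefer ERK, and DUSP8, DUSP10 and DUSP16 prefer JNK and p38. DUSP14 is a small atypical member that lacks the kinase-binding domain of the others.

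Values are TPM, the authors' abundance per transcript length, scaled to the same total in every library, so levels can be set side by side between genes. TPM is a share of a library, and the depth behind it is unknown. In a bulk sample, fewer expressing cells and less RNA per cell cannot be told apart. Mitochondrially encoded genes took 6.43% to 14.9% of TPM in LY libraries and 12.2% to 37.5% in DMSO libraries, where the highest value, in NC-2, stood apart from the other 4 (12.2% to 14.1%). The line's keratins KRT8 and KRT18 and its vimentin (VIM) were abundant: KRT8 at 1182 to 1515 TPM in LY and 1069 to 1601 TPM in DMSO. The ductal keratin KRT19 was at 15.8 to 24.6 TPM in LY and 123 to 166 TPM in DMSO, without overlap, and the sum of all 7 epithelial and ductal markers was 5357 to 6035 TPM in LY and 6358 to 6772 TPM in DMSO. KRT7, CDH1 and EPCAM did not exceed 1.76 TPM in any library. All 4 acinar and all 4 endocrine markers were listed at 0. Of 4 leukocyte, 4 endothelial and 4 fibroblast markers, 2, 2 and 1 were listed at 0 throughout. PTPRC, LYZ, PECAM1, KDR and DCN were at or near 0, whereas CD68, CDH5 and COL1A2 made up most of the sums of their lists. The summed leukocyte markers ran from 131 to 232 TPM in LY and from 34.5 to 47.3 TPM in DMSO, nearly all of it CD68, a lysosomal protein. Endothelial sums were 2.74 to 3.32 TPM in LY and 0.0988 to 0.535 TPM in DMSO, and fibroblast sums 27.7 to 37.7 TPM in LY and 68.9 to 115 TPM in DMSO. CDH5 alone held 2.68 to 3.22 TPM in LY and 0.0988 to 0.535 TPM in DMSO. COL1A2 alone held 27.1 to 37.1 TPM in LY and 66.25 to 111 TPM in DMSO. The part of these markers in the results was not tested.

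Transcripts of 7 of the 10 phosphatases were called higher in LY and none lower. Of the other 3, 1 was tested and did not pass, and 2 were not tested. DUSP1 and DUSP5 had the largest differences (4.06 and 4.73 times higher by group mean), followed by DUSP8, DUSP14, DUSP7 and DUSP2, and DUSP16 had the smallest difference that passed. The place of DUSP2 depends on the 1 added to TPM before the logarithm. With 0.1 added, its log2 fold change (1.33) stood above those of DUSP14 (1.25) and DUSP7 (1.23). DUSP6 was present in both groups without a difference that passed, and DUSP4 and DUSP10 were too low to enter the test. A gene was tested where at least 5 of the 10 libraries had a TPM of at least 1. The test was limma-trend on log2(TPM + 1) over all 11663 such genes, with a Benjamini-Hochberg adjusted p under 0.05 as the call. Of all tested genes 39.8% were called higher and 24.9% lower in LY, so a call in itself is common here. The background depends on the scaling across libraries. As deposited, 4639 genes were higher and 2899 lower, 61.5% higher among the calls. Median-ratio scaling gave 3972 higher and 3790 lower genes (51.2%), quantile normalization 4055 higher and 3694 lower (52.3%), and scaling to the upper quartile 3442 higher and 4266 lower (44.7%). Over the whole set of tested genes the median difference was 0.17 on the log2 scale in the deposited values and -0.062 to 0.051 under these scalings. Relative to that 0.17, DUSP1 was higher by 2.04, DUSP5 by 1.88, DUSP8 by 1.41, DUSP14 by 1.06, DUSP7 by 1.05, DUSP2 by 0.97, DUSP16 by 0.54 and DUSP6 by 0.18. In the deposited values a log2 fold change of at least 1 together with a call was reached by 6 of the 8 tested members and by 12.4% of all tested genes. With upper-quartile scaling DUSP2 (0.94), DUSP7 (0.97) and DUSP14 (0.99) fell below 1, and with quantile normalization DUSP7 (0.95) and DUSP14 (0.96) did. The share of all tested genes at that limit was not computed under the scalings. In 7 tested members every LY library lay above every DMSO library, as in 32.7% of all tested genes. Members that pass an expression filter are a selected set, so these counts describe them and are no test of the family.

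**Figure D1:**
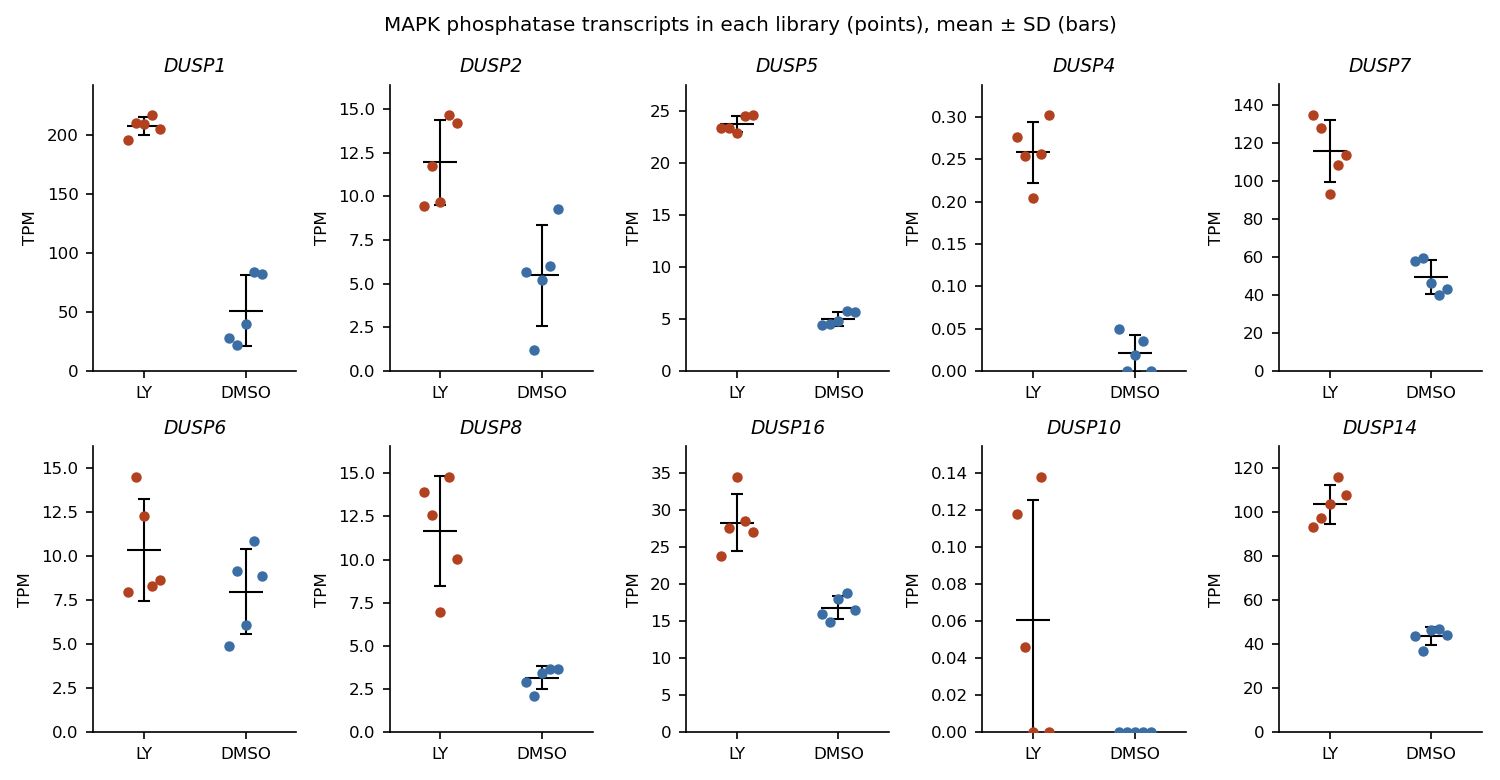
TPM of each of the 10 phosphatase genes (vertical axes, linear from 0, a scale of its own in each panel) in 5 LY and 5 DMSO libraries (points), with the mean and SD as bars. DUSP1, DUSP5, DUSP7, DUSP8, DUSP14 and DUSP16 separate without overlap, DUSP2 separates by a narrow margin (9.47 TPM in the lowest LY library, 9.28 TPM in the highest DMSO library), DUSP6 overlaps, and DUSP4 and DUSP10 do not exceed 0.302 TPM.

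DUSP1, the prototype of the family and an immediate early gene whose product acts on p38, JNK and ERK in the nucleus, was the most abundant member in LY cells (GENCODE release 29, hg38, chr5:172768090-172771195, minus strand). It measured 196, 210.2, 209, 217 and 205 TPM in LY-1 to LY-5, against 27.7, 21.8, 39.4, 84.2 and 82.5 TPM in the control libraries NC-1 to NC-5. LY libraries lay close together, whereas controls fell into 3 low and 2 higher ones, and the groups did not overlap. The coefficient of variation was 3.72% in LY and 58.9% in DMSO. The log2 fold change was 2.21 ± 0.33 (SE, limma-trend adjusted p = 9.80e-05, higher in 5 of 5 LY libraries), a mean of 208 ± 7.72 TPM in LY and 51.1 ± 30.1 TPM in DMSO (SD, n = 5 each). Of the tested genes 0.789% had a larger log2 fold change. DUSP1 overlaps an antisense gene, AC022217.3, and whether reads were counted by strand is not given in the sources used here, which also bears on DUSP6, DUSP8 and DUSP16, each overlapped by a gene on the other strand.

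The 2 higher controls of DUSP1, NC-4 and NC-5, were also the highest controls for the transcription factor genes JUN, FOS and EGR1, the textbook immediate early genes. FOS had 25.4 and 28.2 TPM in NC-4 and NC-5 and 5.63 to 17.2 TPM in the other 3 controls, and JUN had 145 and 134 TPM against 70.1 to 83.1 TPM. Between groups these genes parted ways. JUN averaged 522 ± 34.1 TPM in LY and 102 ± 34.2 TPM in DMSO, a log2 fold change of 2.40 ± 0.19 (limma-trend adjusted p = 5.77e-07). FOS averaged 3.84 ± 1.25 TPM in LY and 16.5 ± 10.5 TPM in DMSO, with a log2 fold change of -1.63 ± 0.42 (limma-trend adjusted p = 0.00439). EGR1 did not pass, at 33.2 to 105 TPM in LY and 37.4 to 255 TPM in DMSO (limma-trend adjusted p = 0.163). Without NC-4 and NC-5, an alternative chosen after these values were seen, the log2 fold change of DUSP1 was 2.81, and that of FOS was -1.01. JUN and FOS stayed called without that pair of libraries and EGR1 did not pass there either.

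**Figure D2:**
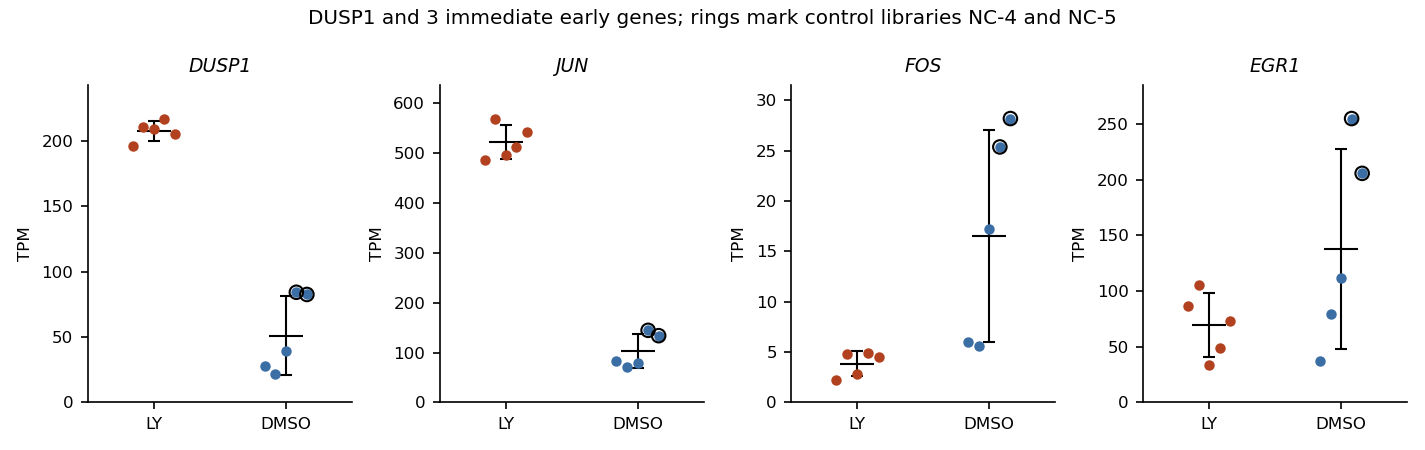
TPM of DUSP1, JUN, FOS and EGR1 in LY and DMSO libraries (points), with the mean and SD as bars and linear axes from 0. Rings mark NC-4 and NC-5, the highest controls for all 4 genes. DUSP1 and JUN are higher in every LY library, FOS is lower in every LY library, and EGR1 overlaps.

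DUSP5, a nuclear phosphatase that is selective for ERK and holds it in the nucleus, had the smallest relative spread of the family in LY (coefficient of variation 3.15%). Its gene lies at hg38 chr10:110497838-110511544, plus strand. It measured 23.4, 23.4, 22.9, 24.5 and 24.6 TPM in LY-1 to LY-5, against 4.40, 4.47, 4.76, 5.80 and 5.67 TPM in NC-1 to NC-5. Every LY library lay far above every control. The log2 fold change was 2.05 ± 0.098 (limma-trend adjusted p = 1.66e-08), and 1.19% of tested genes had a larger one. GENCODE release 29 lists 2 processed DUSP5 pseudogenes and 3 of DUSP8, and how reads shared with such copies were counted is not given in the sources used here.

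DUSP2, an inducible nuclear phosphatase best known from activated lymphocytes (hg38 chr2:96143166-96145440, minus strand), stood at lower levels. It had 9.47, 11.8, 9.71, 14.7 and 14.2 TPM in LY-1 to LY-5, against 5.65, 1.21, 5.2, 6.02 and 9.28 TPM in NC-1 to NC-5. NC-2, the library with the high mitochondrial share, was the lowest control and NC-5 the highest, just under the lowest LY library. The log2 fold change was 1.14 ± 0.33 (limma-trend adjusted p = 0.00948). Without NC-2 it was 0.79, and 0.72 with median-ratio scaling in addition, with calls in both cases.

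DUSP4, the fourth nuclear inducible member, was close to the lower end of what the table records. It was listed at 0.276, 0.254, 0.204, 0.256 and 0.302 TPM in LY-1 to LY-5, against 0.0495, 0, 0.0191, 0.0349 and 0 TPM in NC-1 to NC-5. All LY values exceeded all control values, but none reached 1 TPM. Fitted without a filter, DUSP4 had a log2 fold change of 0.30 ± 0.027 on the log2(TPM + 1) scale (limma-trend adjusted p = 5.76e-06), a scale that understates changes at such levels, and no fold is given against controls listed at 0.

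RefSeq promoter sequences, the 250 bases before and 50 bases after an annotated start on GRCh38.p14, were held for 8 of the 10 members, and are named by symbol; DUSP4 and DUSP5 had none. They were searched on both strands for the cAMP response element TGACGTCA, the AP-1 site TGANTCA, the E-box CACGTG, the TATA motif TATAAA and the CArG box of serum response factor, motifs of immediate early genes. The promoters of DUSP1 (chr5:172771146-172771445, minus strand) and DUSP2 (chr2:96145391-96145690, minus strand) are shown as the nuclear members with matches, given in capitals, 5′ to 3′ on the gene's strand.

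DUSP1: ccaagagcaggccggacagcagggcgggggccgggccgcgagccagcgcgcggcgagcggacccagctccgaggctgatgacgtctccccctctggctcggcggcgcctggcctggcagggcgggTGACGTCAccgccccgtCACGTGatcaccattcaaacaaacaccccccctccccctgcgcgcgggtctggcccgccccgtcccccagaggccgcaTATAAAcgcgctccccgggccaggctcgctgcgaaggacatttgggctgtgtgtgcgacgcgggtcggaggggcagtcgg

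DUSP2: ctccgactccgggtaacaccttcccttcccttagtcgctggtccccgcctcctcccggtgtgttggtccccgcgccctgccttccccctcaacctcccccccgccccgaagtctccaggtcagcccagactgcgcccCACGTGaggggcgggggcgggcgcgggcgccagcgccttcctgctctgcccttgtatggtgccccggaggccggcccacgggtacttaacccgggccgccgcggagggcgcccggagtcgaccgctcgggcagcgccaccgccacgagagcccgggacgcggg

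In DUSP1 the capitals mark TGACGTCA from base -125, CACGTG from -108 and TATAAA from -30, counted from the annotated start. In DUSP2 they mark CACGTG from -113. Among 35116 promoters of the same length, 1.85% held TGACGTCA, 7.26% CACGTG and 11.5% TATAAA. No promoter of the 8 members held TGANTCA or a CArG box, which occurred in 7.71% and 1.29% of all promoters. These are matches of letters within 300 bases and say nothing of binding.

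Of the cytoplasmic ERK-selective pair, DUSP7 (hg38 chr3:52048919-52056550, minus strand) rose and DUSP6 (hg38 chr12:89347232-89353271, minus strand) did not pass. DUSP7 measured 134, 128, 93.2, 108 and 114 TPM in LY-1 to LY-5, against 57.8, 59.5, 46.3, 40.1 and 43.2 TPM in NC-1 to NC-5. The ranges lay well apart, and the log2 fold change was 1.21 ± 0.14 (limma-trend adjusted p = 1.08e-05). DUSP6, the feedback phosphatase most often read as a sign of ERK activity, had 7.96, 14.5, 12.3, 8.30 and 8.62 TPM in LY-1 to LY-5, against 4.89, 9.14, 6.11, 10.8 and 8.87 TPM in NC-1 to NC-5. Its groups overlapped widely. The log2 fold change of DUSP6 was 0.35 ± 0.22 with a 95% interval from -0.12 to 0.82 (limma-trend adjusted p = 0.176) and so is compatible with no difference and with one close to that of DUSP16. Under the 3 scalings it lay between 0.12 and 0.34, and 0.56 without NC-4 and NC-5, with no call.

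DUSP9, the third cytoplasmic ERK-selective phosphatase, is not among the 10 members and went the opposite way. It averaged 2.81 ± 0.834 TPM in LY and 11.2 ± 2.55 TPM in DMSO (log2 fold change -1.68 ± 0.19, limma-trend adjusted p = 1.10e-05). Its groups did not overlap, although NC-2 held only 6.72 TPM and the other controls 11.7 to 12.8 TPM, and it was also called lower under each of the 3 scalings.

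Among the JNK/p38-selective phosphatases, DUSP8 (hg38 chr11:1554044-1571920, minus strand) and DUSP16 (hg38 chr12:12474210-12562383, minus strand) rose, and DUSP10 was barely listed. DUSP8 had 13.9, 12.6, 6.99, 14.8 and 10.03 TPM in LY-1 to LY-5, against 2.92, 2.12, 3.46, 3.65 and 3.67 TPM in NC-1 to NC-5. LY-3 was the lowest LY library and still above all controls. The log2 fold change was 1.58 ± 0.19 (limma-trend adjusted p = 1.68e-05). The gene that overlaps it on the other strand is KRTAP5-AS1. DUSP16, a phosphatase that shuttles between nucleus and cytoplasm, had 23.9, 27.7, 34.5, 28.6 and 27.0 TPM in LY-1 to LY-5, against 16.03, 14.9, 18.0, 18.8 and 16.5 TPM in NC-1 to NC-5. LY-3 was here the highest LY library, and the groups did not overlap. Its log2 fold change, 0.71 ± 0.11 (limma-trend adjusted p = 0.000132), was the smallest among the called members, and 22.5% of tested genes had a larger one. DUSP10, a JNK and p38 phosphatase known from immune cells, was listed at 0.118, 0.0464, 0, 0.138 and 0 TPM in LY-1 to LY-5 and at 0 in all 5 controls. No fold is given against controls at 0.

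The promoter of DUSP8 (RefSeq, GRCh38.p14, chr11:1572222-1572521, minus strand) is shown because it held more copies of TGACGTCA, in capitals, than that of any other member searched, from bases -118 and -74. These positions count from the RefSeq start. The window lies wholly upstream of the GENCODE gene, whose minus-strand start is base 1571920, so the annotations differ on where DUSP8 starts.

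DUSP8: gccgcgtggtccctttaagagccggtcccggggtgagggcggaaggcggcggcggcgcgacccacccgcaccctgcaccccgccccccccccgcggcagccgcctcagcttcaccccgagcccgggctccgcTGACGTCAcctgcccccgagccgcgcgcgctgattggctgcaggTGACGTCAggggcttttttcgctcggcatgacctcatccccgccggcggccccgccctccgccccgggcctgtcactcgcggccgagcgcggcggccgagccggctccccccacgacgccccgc

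At least 2 copies of TGACGTCA occurred in 21 of the 35116 promoters, 0.0598%. The promoters of DUSP6, DUSP7, DUSP10, DUSP14 and DUSP16 held none of the 5 motifs, and these 5 genes include 3 that were called higher in LY (DUSP7, DUSP14 and DUSP16). The RefSeq window of DUSP16 (chr12:12562814-12563113) also lies wholly upstream of its GENCODE gene, and that of DUSP6 (chr12:89352452-89352751) wholly within its gene. Bases around the GENCODE starts of DUSP6, DUSP8 and DUSP16 were not searched.

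DUSP14, the atypical member, known for dampening T cell receptor signalling (hg38 chr17:37489831-37513501, plus strand), was abundant in both groups. It measured 93.3, 97.4, 103, 116 and 108 TPM in LY-1 to LY-5, against 43.9, 36.7, 46.3, 47.0 and 44.1 TPM in NC-1 to NC-5. Both groups were tight, with coefficients of variation of 8.55% in LY and 9.37% in DMSO. The log2 fold change of 1.23 ± 0.097 (limma-trend adjusted p = 5.73e-07) was close to that of DUSP7.

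For the 7 called members the two-sided exact permutation test over all assignments of the libraries gave p = 0.0079 each, the smallest it can give, and for DUSP6 it gave p = 0.206. In 21 of 22 alternative fits the number of members called was 7, and the fit without a filter called 8, DUSP4 being the addition.

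**Figure D3:**
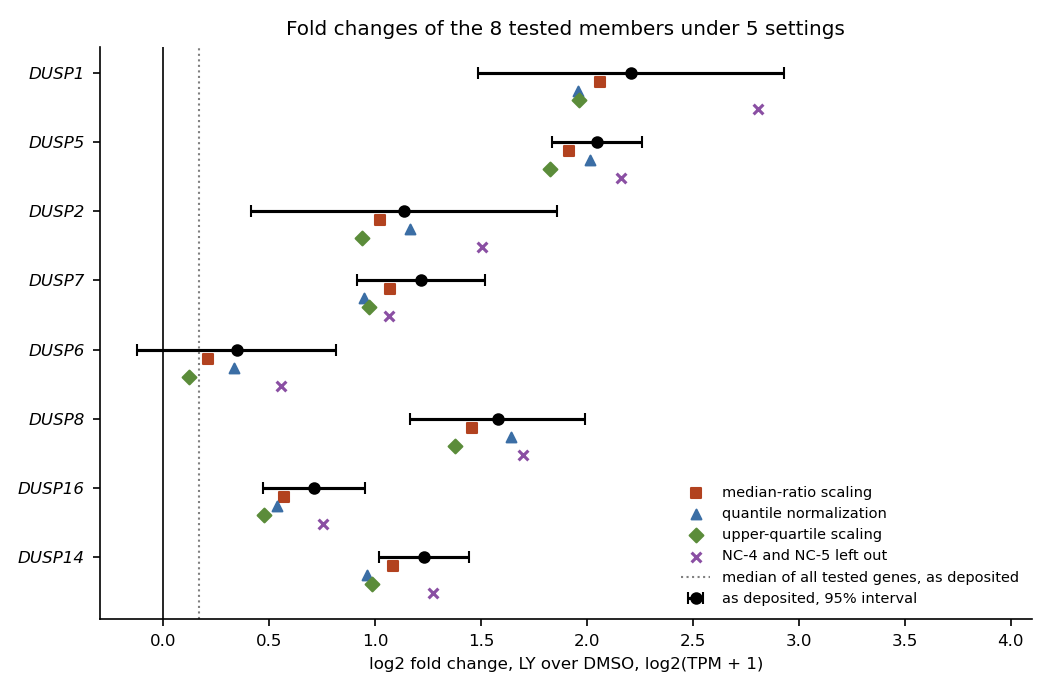
Log2 fold changes of LY over DMSO on the log2(TPM + 1) scale for the 8 tested members, as deposited (black points with 95% intervals of the limma fit) and under 3 scalings or without NC-4 and NC-5 (coloured symbols). All symbols lie to the right of 0, and only the interval of DUSP6 includes 0. The dotted line marks 0.17, the median of all tested genes as deposited.

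By level, DUSP1 led in every LY library, but in DMSO it led by its mean alone, which NC-4 and NC-5 carried. In NC-1, NC-2 and NC-3 both DUSP7 and DUSP14 exceeded DUSP1, and by median DUSP1 (39.4 TPM in DMSO) lay below DUSP7 (46.3 TPM) and DUSP14 (44.1 TPM). In LY cells DUSP1 stood alone at 208 TPM, DUSP7 (115 TPM) and DUSP14 (104 TPM) followed with overlapping ranges, then DUSP16 (28.3 TPM) and DUSP5 (23.8 TPM), also overlapping, and then DUSP2, DUSP8 and DUSP6 (12.0, 11.7 and 10.3 TPM), which overlapped in turn. In DMSO cells DUSP1, DUSP7 and DUSP14 (means of 51.1, 49.4 and 43.6 TPM) overlapped in range, DUSP16 (16.8 TPM) and DUSP6 (7.97 TPM) stood apart from each other, and DUSP6, DUSP2 (5.47 TPM) and DUSP5 (5.02 TPM) overlapped. DUSP5 thus ranked above DUSP6 in LY and, with overlapping ranges, below it in DMSO. In LY their ranges were 22.9 to 24.6 TPM and 7.96 to 14.5 TPM.

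Summed over its 4 genes, the nuclear inducible class held 243 ± 9.77 TPM in LY and 61.6 ± 33.0 TPM in DMSO, a ratio of means of 3.95. The ERK-selective pair held 126 ± 16.3 TPM in LY and 57.4 ± 7.90 TPM in DMSO (ratio 2.19), the JNK/p38-selective genes 40.1 ± 2.65 and 20.0 ± 2.14 TPM in LY and DMSO (ratio 2.002), and DUSP14 104 ± 8.85 and 43.6 ± 4.09 TPM in LY and DMSO (ratio 2.37). Within the family total, which was 492 to 532 TPM in LY and 150 to 216 TPM in DMSO, nuclear inducible genes made up 45.6% to 49.1% in LY libraries and 18.3% to 45.6% in DMSO libraries. The upper end in DMSO came from NC-4 and NC-5, and the sum is mostly DUSP1. JNK/p38-selective genes made up 7.24% to 8.43% of the total in LY and 9.43% to 12.7% in DMSO. The ERK-selective sum is mostly DUSP7 (ratio of means 2.34, against 1.30 for DUSP6). The JNK/p38-selective sum is mostly DUSP16 (ratio 1.68, against 3.68 for DUSP8). A class ratio therefore does not describe each of its genes. These sums are descriptions without a test.

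**Figure D4:**
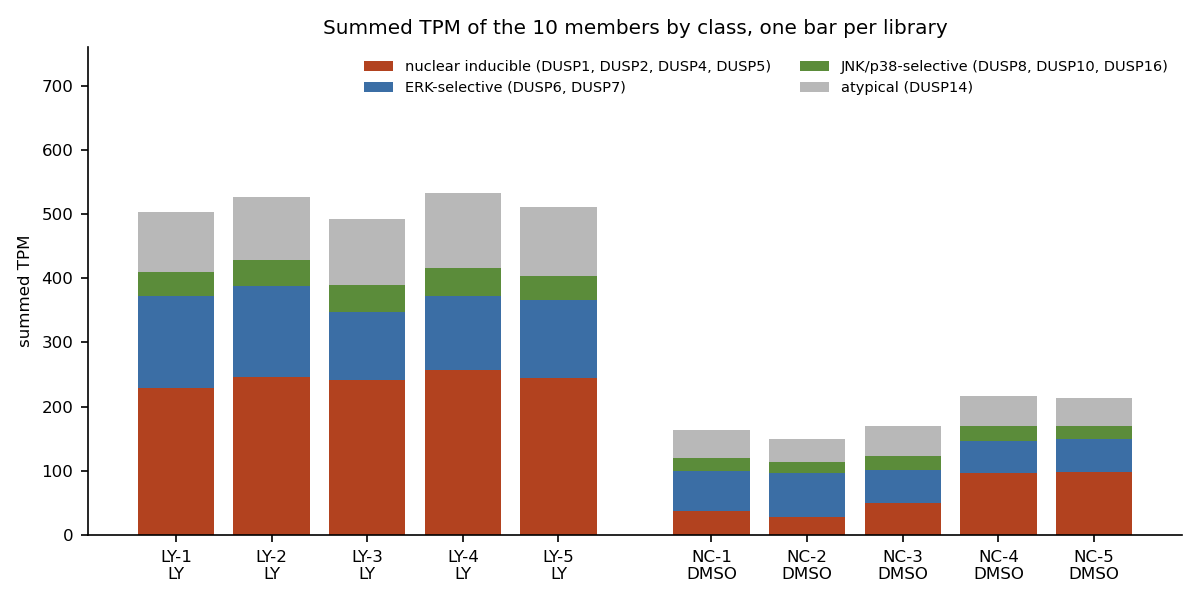
Summed TPM of the 10 members in each library (bars from 0), split into the nuclear inducible, ERK-selective, JNK/p38-selective and atypical classes. LY bars reach 492 to 532 TPM and DMSO bars 150 to 216 TPM, and the nuclear inducible segment differs most among the DMSO bars.

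Whether members of one class moved by the same factor was asked with the ratio of a pair of genes within each library, which a single scaling factor per library cannot change. Quantile normalization is no such factor, and the ratios were not computed under it. A pair was taken from each class that has more than 1 tested gene, chosen after the values were seen, and the 3 p-values were adjusted together. The nuclear pair joined the tested members with the closest log2 fold changes, DUSP1 (2.21) and DUSP5 (2.05), and left out DUSP2 (1.14). It therefore cannot say whether the nuclear class as a whole moved by the same factor. Because the pair was picked for its closeness, its p-value is no evidence that DUSP1 and DUSP5 moved alike. That p-value is also among the 3 adjusted together, which makes the adjusted p-values of the other pairs larger. DUSP1 to DUSP5 had a mean log2 ratio of 3.13 ± 0.059 in LY and 3.14 ± 0.71 in DMSO (SD, n = 5 each), a difference of -0.015 ± 0.32 (SE, two-sided exact permutation p = 0.984, adjusted p = 0.984). The wide spread of the controls, from 2.28 to 3.86, limits what this comparison can show. Without NC-4 and NC-5 the difference was 0.46 (exact permutation, adjusted p = 0.0536). DUSP7 to DUSP6 had a mean log2 ratio of 3.51 ± 0.47 in LY and 2.67 ± 0.64 in DMSO, a difference of 0.84 ± 0.35 that did not pass after adjustment (exact permutation p = 0.0397, adjusted p = 0.0595). Without NC-1 this pair passed (difference 1.06, exact permutation, adjusted p = 0.0357), and it passed in no other alternative. With other single libraries left out the adjusted p reached 0.131 (exact permutation). Without NC-4 and NC-5 the difference was 0.45 (exact permutation, adjusted p = 0.196). DUSP8 to DUSP16 had a mean log2 ratio of -1.32 ± 0.60 in LY and -2.44 ± 0.23 in DMSO, a difference of 1.11 ± 0.29 (exact permutation p = 0.0159, adjusted p = 0.0476). DUSP8 therefore gained on DUSP16 in 4 of 5 LY libraries relative to all controls, and LY-3, at -2.30, lay within the control range. That call was lost without NC-2, NC-3 or NC-4 (exact permutation, adjusted p = 0.0714 each).

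The targets of these phosphatases, the MAP kinases, moved by kinase and by paralog. All 3 tested p38 genes were lower in LY (2 of 3 without NC-4 and NC-5), and the 2 tested JNK genes went opposite ways. MAPK3, which encodes ERK1, averaged 46.2 ± 5.08 TPM in LY and 86.4 ± 7.83 TPM in DMSO (log2 fold change -0.89 ± 0.10, limma-trend adjusted p = 1.13e-05). The JNK gene MAPK8 averaged 21.7 ± 2.62 TPM in LY and 12.2 ± 1.32 TPM in DMSO (log2 fold change 0.78 ± 0.11), and its paralog MAPK9 27.8 ± 1.62 TPM in LY and 42.6 ± 2.82 TPM in DMSO (log2 fold change -0.59 ± 0.085). MAPK14, which encodes p38 alpha, averaged 13.1 ± 4.47 TPM in LY and 20.6 ± 4.74 TPM in DMSO with overlapping ranges (log2 fold change -0.64 ± 0.22, limma-trend adjusted p = 0.0202). MAPK11, a second p38 gene, fell to 1.38 ± 0.398 TPM in LY, against 9.39 ± 3.10 TPM in DMSO. Of the atypical kinases of the ERK kind, MAPK6 rose (log2 fold change 1.15 ± 0.091) and MAPK15 fell (-0.96 ± 0.12). MAPK15 was low, at 0.735 to 1.44 TPM in LY and 2.34 to 3.59 TPM in DMSO. Among LY libraries only LY-5 reached 1 TPM, so MAPK15 met the filter through the DMSO libraries. Without NC-4 and NC-5 it did not enter the test.

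Upstream and beside them, the lists were mixed. Of 6 tested MAP2 kinase genes 4 rose and 1 fell, led by the ERK activator MAP2K1 (log2 fold change 1.14 ± 0.11) and with MAP2K5 lower (-0.30 ± 0.089), and 3 rose and 2 fell under each of the 3 scalings. Of 21 tested MAP3 kinase genes 8 rose and 5 fell, led by BRAF (1.57 ± 0.12) and MAP3K6 (-1.31 ± 0.13), and 6 rose and 9 fell with median-ratio scaling. Of 11 tested genes around RAS 5 rose and none fell, SOS2 the most (1.20 ± 0.18), whereas 4 rose and 3 fell with upper-quartile scaling. Of 10 scaffold genes 5 rose and 1 fell, led by PEA15, which holds ERK in the cytoplasm (2.28 ± 0.13), with MAPK8IP1 lower (-0.53 ± 0.15), a call that was lost without NC-4 and NC-5, and 3 fell under each of the 3 scalings. Of 8 tested kinases activated by MAP kinases 4 rose and 4 fell, with MAPKAPK3 (1.22 ± 0.15) and MKNK2 (-1.72 ± 0.13) at the ends. These counts are to be read against the 39.8% higher and 24.9% lower among all tested genes.

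Other phosphatases that act on MAP kinases were measured too, as were further genes of the dual-specificity family, not all of which act on MAP kinases. All 5 tested serine/threonine phosphatase genes rose, by log2 fold changes of 0.84 (PPM1A) to 1.27 (PPP2CB, a catalytic subunit of PP2A). Of 9 further tested genes of the dual-specificity family 4 rose, DUSP11, DUSP12, DUSP28 and STYXL1, and 2 fell, DUSP9 and DUSP18. DUSP11, which dephosphorylates RNA rather than protein, rose most (1.53 ± 0.13). Their counts did not change under the 3 scalings.

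Of 12 transcripts known to follow ERK activity, DUSPs left out, 6 rose, 2 fell and 4 did not pass. With quantile normalization or upper-quartile scaling 6 rose and 3 fell. PHLDA1, a pleckstrin homology protein, averaged 595 ± 214 TPM in LY and 96.1 ± 34.0 TPM in DMSO (log2 fold change 2.60 ± 0.26, limma-trend adjusted p = 3.42e-06), while CCND1, cyclin D1, averaged 45.6 ± 3.67 TPM in LY and 95.3 ± 8.73 TPM in DMSO (log2 fold change -1.05 ± 0.096). ETV4, ETV5, SPRY4 and SPRED2, like DUSP6, did not pass. Of 14 transcription factor genes linked to MAP kinases 8 rose, 1 fell and 5 did not pass. With median-ratio scaling 8 rose and 2 fell, and with upper-quartile scaling 7 rose and 2 fell. ETS1 rose most, at 222 ± 4.04 TPM in LY and 33.5 ± 2.04 TPM in DMSO (log2 fold change 2.69 ± 0.077, limma-trend adjusted p = 1.82e-09), and FOS was the one that fell in the deposited values. As for the lists above, these counts are to be read against the 39.8% higher and 24.9% lower among all tested genes.

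**Figure D5:**
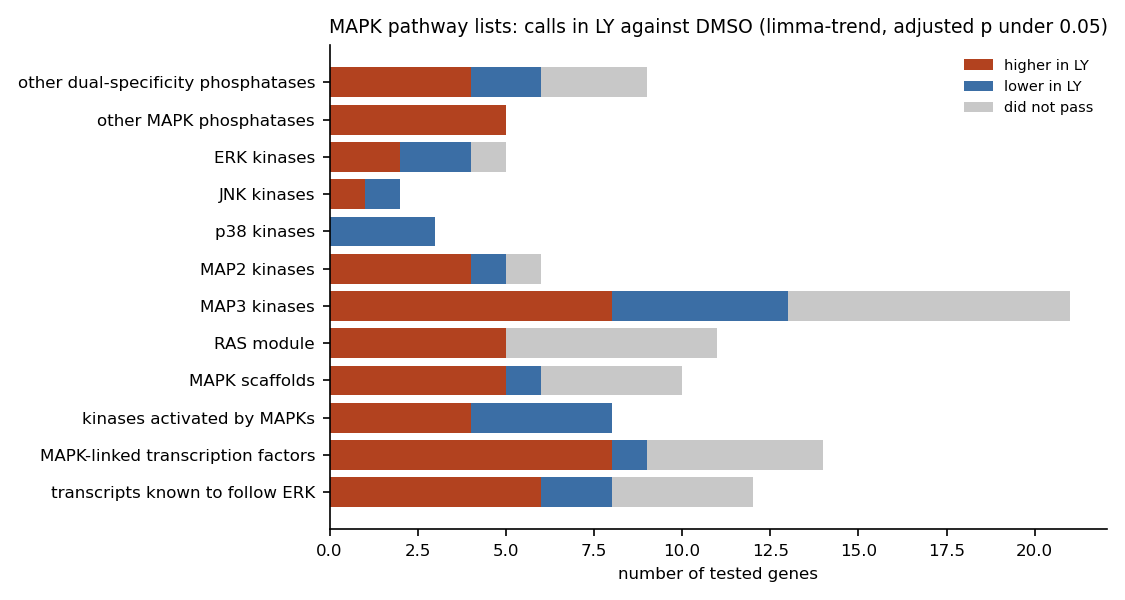
Number of tested genes (horizontal axis) in 12 lists around the MAP kinase pathway that were higher in LY, lower in LY or did not pass (limma-trend, adjusted p under 0.05). All 3 tested p38 genes are lower and all 5 other MAPK phosphatase genes higher, and most other lists hold calls in both directions.

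The transcripts of the members differ in the AU-rich pentamer ATTTA, a feature of short-lived mRNAs, counted in the 3′ UTR of the GENCODE release 29 transcript with the longest coding sequence. DUSP1 held 4 copies within 672 bases, DUSP8 also 4 within 2474, DUSP16 5 within 2623, DUSP2 and DUSP14 3 each, DUSP6 1, and DUSP5 and DUSP7 none. DUSP4 and DUSP10, which did not enter the test, held 6 copies within 3962 bases and 3 within 988. Tested genes had a median of 1 copy and a median 3′ UTR length of 942.5 bases. The longer nonamer TTATTTATT occurred in 7.82% of tested genes and, among the members, in DUSP1, DUSP4 and DUSP8. Called members are found with and without the pentamer, and a link between the pentamer and the changes was not tested.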

How the data were processed

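RNA sequencing data of 10 PANC-1 libraries were used, LY (5) and DMSO (5), grouped by the sample titles. The authors deposited 1 table of TPM, scaled within each library (columns sum to 999932 to 999967). Controls appear there as NC-1 to NC-5; the sample labels do not use NC, and these columns were assigned to DMSO as a group. The design text gives 4 samples per group and the labels 5, and all columns were used. For the aligner, counting tool, annotation and strand setting the entry is: not given in the sources used here. GRCm38, mm10 and hg38 are listed without roles, per the submitters' processing notes, and gene IDs are human. Depth is unknown, so no counting interval is given. No source says that libraries came from separate cultures, so the spread that p-values measure may be technical.

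Symbols came from a table of gene IDs (20148 of 20263 matched). Genes with TPM of at least 1 in at least 5 libraries were fitted with limma 3.58.1 (R 4.3.3) on log2(TPM + 1), with group as the only term, a mean-variance trend and Benjamini-Hochberg adjustment over all 11663 genes. The fit was checked on simulated data. Ratios and single members were compared by two-sided exact permutation tests. No 2 columns were identical. Members, lists and tests were chosen with earlier results of these data known. Named genes are all members, the called gene with the largest change each way in each list, and kinases taken by name (MAPK3, MAPK8, MAPK9 and MAPK14, with another not reported here). Others (JUN, EGR1 and further list genes) were chosen after their values were seen. Alternatives were pseudocounts of 0.1 and 0.5, no filter or a TPM of 5, 4 other scalings, 2 other limma settings and leaving out libraries. DUSP13A and DUSP13B were not matched.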

Additional observations from a re-analysis of the deposited data

Results flagged for a closer look

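The checks numbered 72 (36 genes in each group), though DUSP10 in DMSO, at 0 throughout, had no spread to judge. In 9 of the 72 a single library stood apart from the other 4 of its group, where chance marks about 1 in 20. None of the 9 concerned a member. Dixon's ratio had to exceed 0.71. NC-2, the control with the highest mitochondrial share, was apart in 5 of them: DUSP11 at 35.4 TPM (others 25.5 to 26.6), DUSP9 at 6.72 TPM (others 11.7 to 12.8), MAP2K1 at 16.8 TPM (others 21.6 to 23.5), PHLDA1 at 156 TPM (others 76.0 to 90.8) and CCND1 at 79.8 TPM (others 98.0 to 101). MAPK6 was apart in LY-3 at 43.0 TPM (others 34.4 to 36.9) and in NC-5 at 17.6 TPM (others 15.3 to 15.9). MAPK15 held 1.44 TPM in LY-5 (others 0.735 to 0.913), and MAP2K5 held 7.24 TPM in LY-3 (others 8.53 to 8.82).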

How the results depend on the processing

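The 7 called phosphatases kept their direction and their call in all 23 alternatives run for each, and DUSP6 stayed uncalled in all of its own. DUSP1 ranged from 1.88 (NC-2 left out, median-ratio scaling) to 2.81 (NC-4 and NC-5 left out) and DUSP2 from 0.72 to 1.504 under the same settings. DUSP5 ranged from 1.83 to 2.23, DUSP7 from 0.95 to 1.29, DUSP8 from 1.38 to 1.83, DUSP14 from 0.96 to 1.27 and DUSP16 from 0.48 to 0.77, and limma-trend adjusted p-values did not exceed 0.024 for any of the 7. The log2 ratios were less settled, all in alternatives chosen after seeing the data. Leaving out 1 library at a time, the difference of DUSP1 to DUSP5 ran from -0.23 to 0.17, that of DUSP7 to DUSP6 from 0.65 to 1.06 and that of DUSP8 to DUSP16 from 0.98 to 1.36. With a pseudocount of 1 the first was 0.16 and the last 0.87 (exact permutation, adjusted p = 0.0595), and without NC-4 and NC-5 they were 0.46 and 1.23, both uncalled; the cause was not tested. With 3 controls few assignments exist, which limits the p that can be reached. No paired analysis was possible because the numbers of the control columns are not tied to the numbers in the sample titles. Depth is unknown, so DUSP4 and DUSP10, at most 0.302 TPM, cannot be judged against counting error.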

Other observations

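The split of the controls seen for DUSP1 was counted over all tested genes, with a limit of 2 times set after the values were seen. DUSP1 lay just above that limit, at 2.10 times, and JUN, FOS and EGR1 did not reach it. Other pairs of controls were not counted, so the share does not show whether such a split is uncommon. NC-4 and NC-5 both held at least 2 times the highest of the other 3 controls in 13 of 11663 tested genes (0.111%), and 10 of these had at least 10 TPM in both libraries. Besides DUSP1 they were RAB43, DDIT3, CLDN4, EGR3, CCN1, PPP1R15A, CCN2, YTHDF2 and HIKESHI, all chosen by this split after it was seen. PPP1R15A, a phosphatase subunit that restores translation under stress, had 144 and 136 TPM in NC-4 and NC-5 and 40.4 to 59.8 TPM in the other controls. DDIT3, a stress-induced transcription factor, had 36.3 and 36.8 TPM in NC-4 and NC-5 and 8.94 to 13.03 TPM in the others. CCN1, a secreted matrix protein, had 159 and 161 TPM there and 57.0 to 67.8 TPM in the others. In LY against DMSO the fitted log2 fold changes were 1.87 for DDIT3, 3.40 for CCN1, 2.64 for PPP1R15A and 1.88 for CCN2, against -1.30 for EGR3 and -1.03 for RAB43. The labels give no batch, day or culture that sets NC-4 and NC-5 apart, and the source of the split was not tested.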
